A study of Mus musculus with 6 samples.

Results

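The genes described here serve the unfolded protein response of the endoplasmic reticulum (ER) and the response to amino acid shortage. The 34 members were set by name, and each symbol stands for its transcript of highest mean signal. All 34 were found among 23282 symbols, and 31 reached the mean of 10 reads that put 7995 genes into the tests. By role the members were 15 ER folding genes, 6 sensors and transcription factors, 4 genes of ER-associated degradation and 9 targets of amino acid or integrated stress signalling. Cth, Ddit4 and Phgdh, all of the last role, lay below the minimum.

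The RNA was poly(A) RNA of peritoneal macrophages, thioglycollate-elicited, from female mice of strain C57BL/6, whose age the labels do not give. Cells received control siRNA (siCtl), siRNA to Smyd5 or siRNA to Phf2 for 48 hours and then vehicle or KLA (Kdo2-LipidA, a minimal lipopolysaccharide that acts on the receptor TLR4) at 100 ng/ml for 4 hours. Each of the 6 combinations was 1 library, so no group has a replicate, and nothing in the labels says whether libraries came from separate animals or cultures. The series asked how enzymes that add or remove methyl groups on histone H4 act on inflammatory genes.

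Proteins that enter the ER are folded there by chaperones, by enzymes that form disulfide bonds and by lectin chaperones that bind sugar chains. When unfolded proteins build up, the membrane sensors encoded by Ern1, Eif2ak3 and Atf6 start a response that raises folding capacity, disposes of misfolded proteins and slows translation. The translation arm is shared with amino acid shortage, in which the factor ATF4 induces genes for amino acid synthesis and transport. Macrophages draw on these pathways when an inflammatory stimulus makes them secrete large amounts of protein.

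The 4 libraries labelled siCtl or siSmyd5 held 919338 to 1429509 reads. The 2 labelled siPhf2 held 577054 and 420149, and 66.7% and 71.6% of these came from Rn45s, the ribosomal RNA precursor, whose share elsewhere was 1.195% or less. The targeted gene Smyd5 had 44 reads with vehicle and 29 with KLA in siCtl, 9 and 20 in siSmyd5, and 3 and 0 in siPhf2. Its length-scaled level, in reads per kilobase of transcript per 1000000 reads scaled by TMM (edgeR's trimmed-mean scaling), was lower in siSmyd5 than in siCtl under vehicle (2.44 against 7.40) but not under KLA (5.82 against 5.27). Phf2 had 113 reads with vehicle and 120 with KLA in siCtl, 52 and 34 in siSmyd5, and 29 and 8 in siPhf2. Its length-scaled level was 22.9 and 11.2 in the libraries labelled siPhf2, against 8.995 and 10.3 in siCtl, which by this scaling goes against that label. In siSmyd5 this level was 6.66 and 4.68. As a share of all reads, most of which are Rn45s in siPhf2, Phf2 was instead lower in siPhf2 than in siCtl. Moreover, the header totals of siCtl match the values of siPhf2, and those of siPhf2 the values of siCtl. Every direction given for siPhf2 below therefore rests on names that the targeted gene, scaled by TMM, does not bear out. Exchanging the siCtl and siPhf2 names turns each such direction. All 6 macrophage markers had reads in every library, with a summed level of 3498 to 5162 TMM-scaled reads per 1000000.

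The chaperone genes Hspa5 and Calr were the most abundant members and Cth, Ddit4 and Phgdh the least. Length-scaled levels are given here over the 4 libraries labelled siCtl or siSmyd5, which are 4 conditions and not replicates. The ER chaperone BiP, encoded by Hspa5, was highest at 367 ± 101 (SD, n = 4). Calr, for the lectin chaperone calreticulin, followed at 336 ± 27.0 (SD, n = 4), then Atf4, for the transcription factor of the amino acid response, at 249 ± 42.8 (SD, n = 4), and Hsp90b1, for the ER form of HSP90, at 214 ± 20.6 (SD, n = 4). The spreads of Hspa5 (242 to 489) and Calr (311 to 364) overlapped, as did those of Atf4 (212 to 297) and Hsp90b1 (185 to 234). The disulfide isomerases Pdia3 and P4hb came next at 171 ± 28.6 and 163 ± 9.45 (SD, n = 4).

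The sensors were lower than these chaperones. Ern1, for the sensor IRE1, stood at 17.6 ± 7.48 (SD, n = 4), Atf6 at 9.77 ± 1.36 (SD, n = 4) and Eif2ak3, for the sensor PERK, at 5.49 ± 1.90 (SD, n = 4). Of the transcription factors below Atf4, Ddit3 (CHOP) reached 64.2 ± 15.7 (SD, n = 4) and Xbp1, whose mRNA IRE1 splices, 22.6 ± 1.81 (SD, n = 4). Among the amino acid genes Ppp1r15a was highest at 62.1 ± 21.9 (SD, n = 4), with Asns, for asparagine synthetase, at 52.9 ± 11.1 (SD, n = 4). Cth, for the cystathionine enzyme that makes cysteine, was lowest at 1.22 ± 0.3996 (SD, n = 4), on 2 to 7 reads per library.

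**Figure D1:**
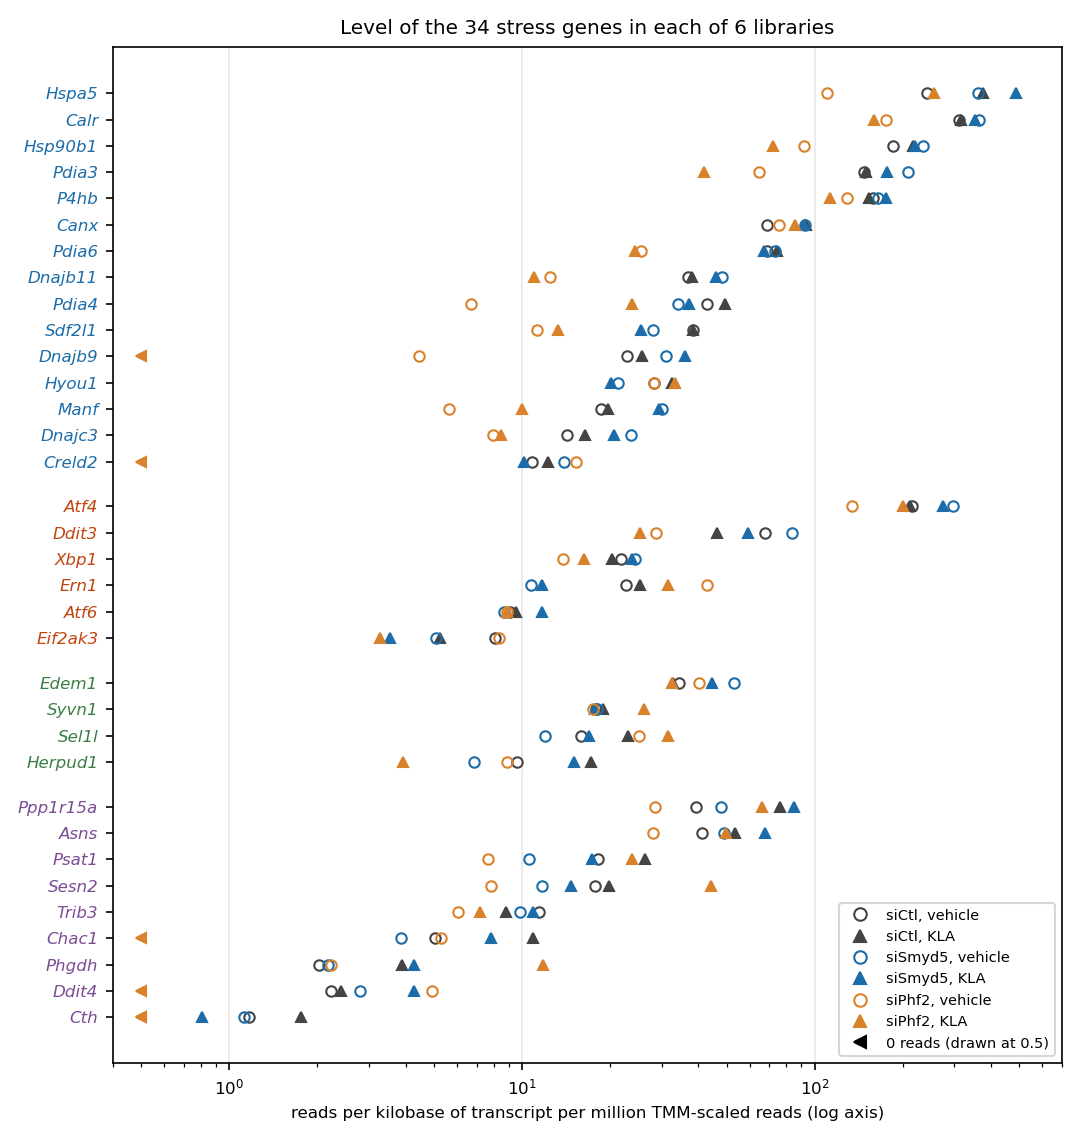
Level of each of the 34 genes in each library, in reads per kilobase of transcript per 1000000 TMM-scaled reads on a log axis, with genes grouped by role from ER folding at the top to amino acid targets at the bottom. Circles are vehicle, triangles are KLA, and left-pointing triangles mark 0 reads; the highest values are those of Hspa5 (up to 489) and most orange siPhf2 points of the folding genes lie left of the rest.

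Many of these genes are known to be induced through the ER stress element, a promoter sequence that the factors ATF6 and NF-Y bind together. It was searched as CCAAT, then 9 bases of any kind, then CCACG, on both strands, in the 250 bases before the start of each gene in the RefSeq promoter table on GRCm38.p6. The table held 30 of the 34 members, all but Atf6, Cth, Hyou1 and Manf. The element was found in 8 of the 30, and in 33 of 27025 genes with a promoter (0.122%) or 12 of 6437 tested genes (0.186%). Of the 8 carriers, 7 are ER folding genes and the other is Syvn1, a ubiquitin ligase of ER-associated degradation. Each site is shown because the fixed ends, in capitals, are what these promoters share, while the 9 bases between differ from gene to gene. Sites are written in the direction that reads CCAAT first.
Hspa5: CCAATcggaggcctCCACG
Hsp90b1, far site: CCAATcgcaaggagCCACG
Hsp90b1, near site: CCAATcgtgcctcaCCACG
Calr: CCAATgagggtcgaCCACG
Canx: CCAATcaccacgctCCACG
Creld2: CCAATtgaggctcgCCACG
Dnajc3: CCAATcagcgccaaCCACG
Pdia6: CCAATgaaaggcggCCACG
Syvn1: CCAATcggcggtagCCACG

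In Hspa5 the site lay at -65 to -47 from the start, and in Syvn1 at -44 to -26, nearest to the start among the 8. Hsp90b1 alone held a pair of exact matches, at -212 to -194 and, on the other strand, at -107 to -89. Near copies of the element were not searched, so a promoter may hold more such sites than are marked. The Hspa5 promoter (chr2:34771840-34772089, plus strand, 62.4% G or C) is printed with its site in capitals because this gene was the most abundant member and moved in more than 1 comparison.
Hspa5: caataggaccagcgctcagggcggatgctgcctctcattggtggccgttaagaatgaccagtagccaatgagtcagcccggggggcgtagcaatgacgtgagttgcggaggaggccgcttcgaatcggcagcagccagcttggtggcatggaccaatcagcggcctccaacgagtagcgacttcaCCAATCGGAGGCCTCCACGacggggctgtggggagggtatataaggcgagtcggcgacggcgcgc

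A further 3 motifs were searched in the same windows. The second form of the element, ATTGG, 1 base, CCACG, was found in Herpud1 alone of the 30 and in 9 of all promoters (0.0333%). TGATGNAA, the letters of the C/EBP-ATF element that ATF4 is known to bind, was found in 3 of 30, namely Asns, Chac1 and Herpud1, and in 954 of all promoters (3.53%) or 122 of those of tested genes (1.90%). TGACGTGG, the core of a site for XBP1 and ATF6, was found in 0 of 30 and in 136 of all promoters (0.503%). These are matches of letters and carry no measure of binding. The Herpud1 promoter (chr8:94386179-94386428, plus strand) is printed because it held matches to both of these motifs with a member, with the C/EBP-ATF letters at -112 to -105 on the other strand and the ER stress letters at -52 to -42, both in capitals.
Herpud1: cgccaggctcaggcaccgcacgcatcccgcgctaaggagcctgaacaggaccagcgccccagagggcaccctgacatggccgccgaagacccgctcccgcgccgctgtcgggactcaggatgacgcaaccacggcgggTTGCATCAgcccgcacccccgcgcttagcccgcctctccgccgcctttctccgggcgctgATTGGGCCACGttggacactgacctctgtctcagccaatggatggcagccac

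KLA was compared with vehicle first, because it is the stimulus of the study. Averaged over the 3 siRNA arms, 3 of the 31 tested members rose and 0 fell in edgeR's quasi-likelihood fit at an adjusted p under 0.05. All tested genes gave 11.2% higher and 4.6% lower by that rule, so the members' share was near the background. At an unadjusted p under 0.05 there were 9 members, 7 of them higher, while 26.6% of all tested genes passed this looser rule. The median log2 fold of the members was 0.05, against -0.03 for all tested genes. In 25 of the 31 the 95% interval of the fold lay within a log2 of 1 either way.

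Ppp1r15a (NM_008654, chr7:52778288-52781638 on mm9) encodes GADD34, the phosphatase subunit that lifts the translation block of stressed cells. It had 220 reads with vehicle and 394 with KLA in siCtl, 166 and 274 in siSmyd5, and 16 and 21 in siPhf2. All 3 arms were higher with KLA, with ratios of 1.94 (95% counting interval 1.64 to 2.29), 1.77 (1.46 to 2.16) and 2.33 (1.16 to 4.77). The averaged log2 fold was 0.93 ± 0.19 (SE), with an edgeR adjusted p of 0.0014, and the scaled vehicle and KLA levels of the 3 arms did not overlap.

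Hspa5 (NM_001163434, chr2:34627610-34632049 on mm9) had 1468 reads with vehicle and 2111 with KLA in siCtl, 1356 and 1710 in siSmyd5, and 67 and 88 in siPhf2. The ratio of KLA to vehicle was above 1 in each arm, at 1.56 (1.45 to 1.66), 1.36 (1.26 to 1.46) and 2.33 (1.67 to 3.25). The averaged log2 fold was 0.71 ± 0.19 (SE), with an edgeR adjusted p of 0.0148. The 2 agents overlapped across arms, since the level with vehicle in siSmyd5 (361) exceeded that with KLA in siPhf2 (256). Among the other 14 folding genes the averaged KLA fold did not pass the test, and their log2 values ran from -0.19 (Pdia3) to 0.24 (Pdia4).

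Herpud1 (NM_022331, chr8:96910400-96919258 on mm9), for a membrane protein of the ER-associated degradation complex, had 43 and 71 reads in siCtl, 19 and 39 in siSmyd5 and 4 and 1 in siPhf2. The ratio of KLA to vehicle was 1.79 (1.21 to 2.67) in siCtl and 2.21 (1.24 to 4.04) in siSmyd5. In siPhf2 the ratio was 0.443, with an interval (0.009 to 4.48) that holds both of the others. The averaged log2 fold was 0.87 ± 0.29 (SE), with an edgeR adjusted p of 0.0477, close to the threshold.

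The other members with an unadjusted p under 0.05 did not pass after adjustment. Among amino acid genes these were Chac1, whose enzyme degrades glutathione, at a log2 fold of 0.98 ± 0.40 (SE), Psat1, a serine synthesis enzyme, at 0.66 ± 0.23 (SE), and Asns at 0.45 ± 0.18 (SE). Sel1l, the scaffold of the degradation complex, stood at 0.48 ± 0.18 (SE). Ddit3 at -0.51 ± 0.20 (SE) and Eif2ak3 at -0.63 ± 0.27 (SE) were the only 2 of the 9 below 0. Ddit3 had 141 and 89 reads in siCtl and 108 and 71 in siSmyd5, so both arms were lower with KLA, but its transcript overlaps Mars and reads were not described as assigned by strand. Xbp1 was at -0.06 ± 0.22 (SE) and Atf4 at 0.08 ± 0.20 (SE), with 95% intervals within a log2 of 1.

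**Figure D2:**
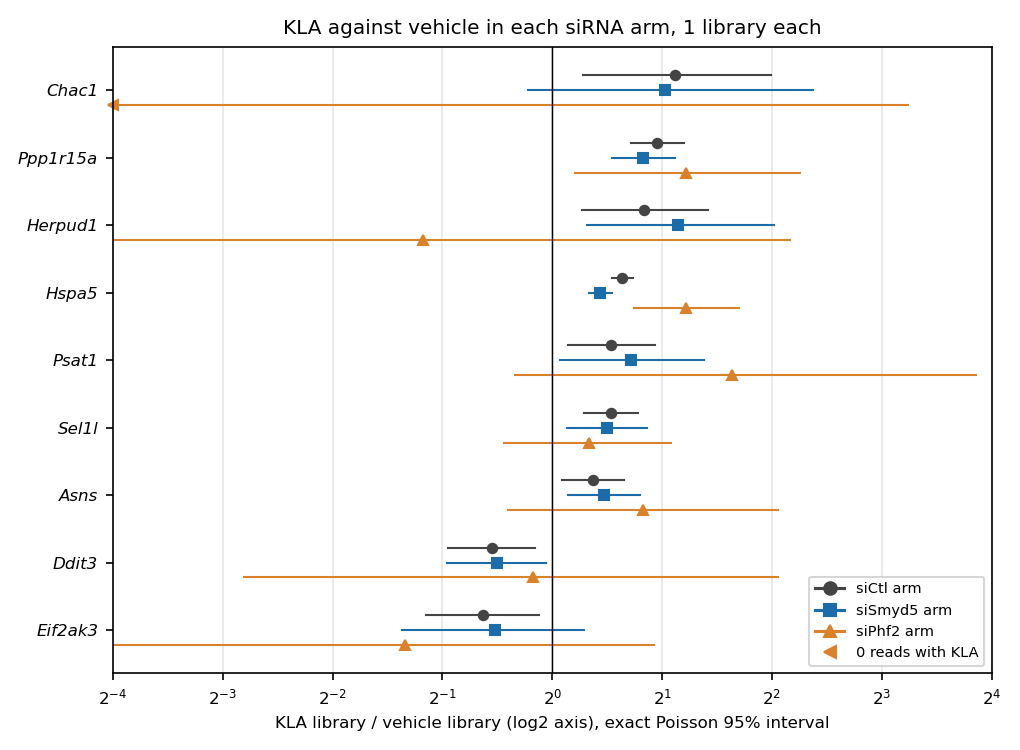
KLA over vehicle in each siRNA arm for the 9 members with an unadjusted p under 0.05, on a log2 axis, with bars for the exact Poisson 95% interval of 1 library against 1, drawn to the axis limits where they run past them. Ppp1r15a, Hspa5, Psat1, Sel1l and Asns lie right of 1 in all 3 arms, and the siPhf2 intervals are the widest because those libraries have the fewest reads.

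Taken 1 library against 1, a gene was called by size when its log2 ratio, with 2 reads added, was at least 1 either way and its counting interval excluded 1. Such contrasts have no replicate check. In siCtl no member was called (all tested genes: 6.92% higher, 2.41% lower), and Chac1 (19 to 38 reads, 2.16-fold, 1.22 to 3.97) lay just inside the limit with a log2 ratio of 0.98. In siSmyd5 only Herpud1 was called (8.68% higher, 3.48% lower among all). In siPhf2 Hspa5, Ppp1r15a and Sesn2 were called (8.37% higher, 6.89% lower). Sesn2, for a leucine-sensing inhibitor of the growth kinase mTORC1, had 5 reads with vehicle and 16 with KLA there, a 5.67-fold difference with an interval of 1.99 to 19.8, but 113 and 116 in siCtl and 46 and 54 in siSmyd5.

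The interval lay above 1 in both the siCtl and the siSmyd5 arm for 6 members, namely Asns, Herpud1, Hspa5, Ppp1r15a, Psat1 and Sel1l. It lay below 1 in both for Ddit3. The share of all tested genes that met this interval rule was not counted, so nothing particular to the members follows. The 15 folding genes were mostly flat: in siCtl 3 lay above 1 (Hspa5, Canx at 1.37-fold and Hsp90b1 at 1.17-fold), and in siSmyd5 Hspa5 lay above and Pdia3 (0.845-fold, 0.761 to 0.938) below. Phgdh, the first enzyme of serine synthesis, was not tested and had 9 and 16 reads in siCtl, 6 and 11 in siSmyd5 and 1 and 3 in siPhf2. Ddit4 and Cth had at most 10 reads in any library.

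The KLA calls depend on the libraries and the tool used. Over all 6 libraries DESeq2 called 7.62% of all tested genes and limma 5.04%, against 15.8% in edgeR. In the 4 libraries labelled siCtl or siSmyd5 alone, 8 members passed, 7 higher (Asns, Chac1, Herpud1, Hspa5, Ppp1r15a, Psat1 and Sel1l) and Ddit3 lower, out of 32 tested. That fit called 22.9% of all its genes, so this share too was near the background. Over all 6 libraries DESeq2 called 0 members (2 at an unadjusted p under 0.05) and limma only Ppp1r15a. With any siCtl or siSmyd5 library left out of the 6, its arm holds 1 library. Fewer members, and fewer of all tested genes, then passed than in the full fit.

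Genes of the same pathways outside the 34 were counted from lists named for their functions. All tested genes gave 11.2% higher and 4.6% lower with KLA and a median log2 fold of -0.03. Of 35 tested genes of amino acid and integrated stress signalling, 9 rose with KLA and 0 fell, with a median log2 fold of 0.32. The largest were Slc7a11, the cystine transporter, at 2.88 ± 0.24 (SE), the stress cytokine Gdf15 at 2.26 ± 0.21 (SE), the small stress protein Nupr1 at 1.99 ± 0.37 (SE) and the arginine transporter Slc7a1 at 1.73 ± 0.28 (SE). Slc7a11 had 54 and 305 reads in siCtl, 22 and 117 in siSmyd5 and 12 and 103 in siPhf2, so its KLA libraries stood above its vehicle libraries in every arm. Of 41 tested genes for ER folding, translocation and degradation, 0 rose and 1 fell, Wfs1, an ER membrane protein, at -0.90 ± 0.19 (SE). Of 11 tested cytosolic heat shock genes, 0 rose and 1 fell, the co-chaperone Bag3, at -0.81 ± 0.19 (SE).

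The libraries labelled siSmyd5, named for a histone methyltransferase, were then compared with those labelled siCtl. Smyd5 itself was lower in the vehicle library of the pair only. Averaged over both agents, 1 of 31 members fell and 0 rose, against 2.71% higher and 3.6% lower among all tested genes. The median log2 fold was 0.12 for the members and 0.00 for all. At an unadjusted p under 0.05 there were 11 members, against 23.6% of all tested genes, and in 24 of 31 the 95% interval lay within a log2 of 1. With the siCtl and siPhf2 names exchanged, 14 members passed, 12 of them higher, against 25.3% of all genes, and Pdia4 turned from -0.37 to 1.43.

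The gene that fell was Ern1 (NM_023913, chr11:106258934-106349110 on mm9). It had 215 reads in siCtl and 63 in siSmyd5 under vehicle, and 222 and 64 under KLA. As length-scaled levels this was 22.7 against 10.7 and 25.3 against 11.7, while the siPhf2 libraries stood at 42.9 and 31.5, so the siSmyd5 pair was the lowest of the 3 and did not overlap the others. The ratio to siCtl was 0.472 (95% counting interval 0.350 to 0.627) under vehicle and 0.461 (0.344 to 0.612) under KLA. For the averaged siSmyd5 effect DESeq2 called 5 of 7995 tested genes and limma 0, so a missing call there says little of any single gene. The averaged log2 fold of Ern1 was -1.10 ± 0.21 (SE), with an edgeR adjusted p of 0.0087. DESeq2 and limma did not call it, while it passed in the 4 siCtl and siSmyd5 libraries alone, and at -1.79 with exchanged names. Fits with any siCtl or siSmyd5 library left out did not call it either. Each of these leaves 1 library in an arm and called very few of all tested genes, so this too says little of Ern1.

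Ern1 was also the 1 member called by size, under vehicle (2.41% of all tested genes higher, 4.99% lower) and under KLA (1.73% higher, 3.63% lower). Longer transcripts were lower in the siSmyd5 libraries across all tested genes (Spearman correlation of log2 ratio and length over 7995 genes -0.46 under vehicle and -0.47 under KLA), and the Ern1 transcript has 3954 bases against a median of 2911. Taken relative to the trend with length, its log2 ratio was -0.94 under vehicle and -0.996 under KLA, just short of the size limit in both. The part of length in the averaged value was not tested.

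Beside Ern1 the members went both ways. The counting interval lay above 1 under both agents for 8, namely Hspa5, Pdia3, Calr, Atf4, Dnajb9, Dnajc3, Edem1 and Manf, and below 1 under both for 5, namely Ern1, Pdia4, Sel1l, Hyou1 and Psat1. None of the 13 other than Ern1 passed the averaged test. How many of all tested genes met the same interval rule was not counted, so these counts show nothing particular to the members. The largest positive was Manf, a secreted factor of the ER lumen, at a log2 fold of 0.64 ± 0.21 (SE), with 98 and 96 reads in siCtl and 99 and 90 in siSmyd5 at lower depth. The lowest after Ern1 was Psat1 at -0.68 ± 0.24 (SE), with 94 and 126 reads in siCtl and 34 and 52 in siSmyd5. Hyou1, a nucleotide exchange factor of BiP, was at -0.54 ± 0.20 (SE), opposite in sign to Hspa5 at 0.48 ± 0.23 (SE). Of the other sensors, which did not pass, Eif2ak3 stood at -0.62 ± 0.28 (SE) and Atf6 at 0.11 ± 0.20 (SE). In the 4 libraries without siPhf2, 13 members passed, 6 higher (Atf4, Dnajc3, Edem1, Hspa5, Manf and Pdia3) and 7 lower (Ern1, Hyou1, Pdia4, Psat1, Sdf2l1, Sel1l and Sesn2), out of 32 tested, in a fit that called 23.7% of all its genes.

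**Figure D3:**
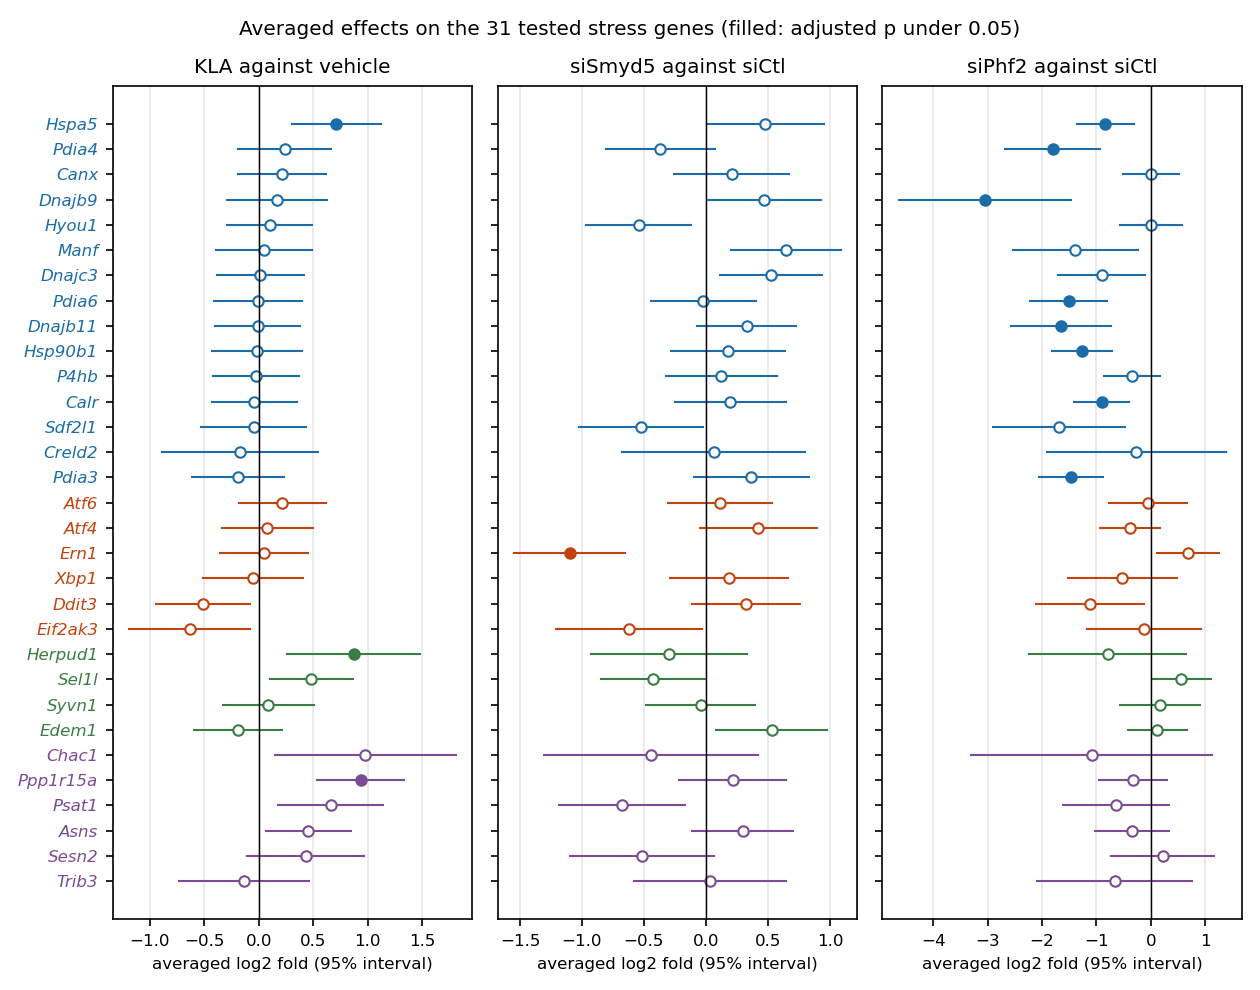
Averaged log2 fold of the 31 tested members for KLA against vehicle (left), siSmyd5 against siCtl (middle) and siPhf2 against siCtl (right), with bars for 95% intervals, filled points for an edgeR adjusted p under 0.05 and colours for role (blue ER folding, red sensors and factors, green degradation, purple amino acid targets). The filled points are 3 at left, Ern1 alone in the middle and 8 blue folding genes at right, and the panels have different scales.

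Against 2.71% higher and 3.6% lower among all tested genes, 3 of the 41 tested other ER genes rose with siSmyd5 and 0 fell. They were Sec62, of the protein translocation channel, at 1.01 ± 0.21 (SE), and the signal peptidase subunits Sec11c at 0.73 ± 0.19 (SE) and Spcs2 at 0.71 ± 0.19 (SE). Of the other amino acid genes 0 rose and Slc7a1 fell, at -1.12 ± 0.30 (SE).

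The libraries labelled siPhf2 were named for a histone demethylase, and among the 4 roles only folding genes passed the test against siCtl. Averaged over both agents, 8 of 31 members were lower than siCtl and 0 higher, against 8.12% higher and 4.45% lower among all tested genes. All 8 belonged to the 15 ER folding genes, whose median log2 fold was -1.27, against -0.63 for all members and -0.13 for all tested genes. At an unadjusted p under 0.05 there were 14 members, against 28.3% of all tested genes. The depth behind these values was small: the 15 folding genes together had 8307 and 9027 reads in siCtl but 484 and 310 in siPhf2, which is 3464 and 4071 against 2003 and 2273 TMM-scaled reads per 1000000.

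The disulfide isomerases gave 3 of the 8. Pdia3 (NM_007952, chr2:121239638-121264422 on mm9), which works with calnexin and calreticulin, had 930 and 874 reads in siCtl and 41 and 15 in siPhf2. With length-scaled levels of 64.5 and 41.8, siPhf2 lay below the other 4 libraries, which ran from 148 to 209. Its averaged log2 fold was -1.46 ± 0.28 (SE), with an edgeR adjusted p of 0.0018. Pdia6 (NM_027959, chr12:17273401-17291576) had 348 and 347 reads in siCtl and 13 and 7 in siPhf2, a log2 fold of -1.51 ± 0.34 (SE), and Pdia4 (NM_009787, chr6:47746140-47763511) had 255 and 270 reads against 4 and 8, a log2 fold of -1.80 ± 0.42 (SE). The fourth isomerase measured, P4hb, did not pass, at -0.35 ± 0.25 (SE) on 959 and 860 reads against 79 and 39. Pdia6 overlaps Atp6v1c2 and Pdia4 overlaps Mir704, so part of their reads could belong to those genes.

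The chaperones gave another 3. Hsp90b1 (NM_011631, chr10:86153586-86168189) had 1216 and 1317 reads in siCtl and 61 and 27 in siPhf2, a log2 fold of -1.27 ± 0.26 (SE) with an edgeR adjusted p of 0.0031. Calr (NM_007591, chr8:87365987-87370830) had 1441 and 1353 reads against 82 and 42, a log2 fold of -0.90 ± 0.24 (SE). Hspa5 was at -0.83 ± 0.25 (SE), with an adjusted p of 0.0333. For Hsp90b1 and Calr both siPhf2 libraries lay below the other 4, while for Hspa5 the siPhf2 KLA library (256) lay above the siCtl vehicle library (242). Canx, for calnexin, the membrane-bound relative of calreticulin, stood at 0.00 ± 0.25 (SE), with a 95% interval within a log2 of 1, and Hyou1 at 0.01 ± 0.27 (SE).

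The last 2 were co-chaperones of BiP, with few reads. Dnajb9 (NM_013760, chr12:45306884-45311055) had 102 and 106 reads in siCtl and 2 and 0 in siPhf2. Under KLA the ratio was 0, with a counting interval of 0 to 0.576, and under vehicle it was 0.195 (0.023 to 0.721). With a floor of 3 reads in place of 0 in the siPhf2 KLA library, the level would be 2.17-fold lower. That value depends on the floor chosen and is not a bound from the counting interval. Dnajb11 (NM_001190804, chr16:22857918-22872538) had 176 and 169 reads against 6 and 3, ratios of 0.338 (0.12 to 0.751) and 0.289 (0.059 to 0.858), and an averaged log2 fold of -1.65 ± 0.44 (SE). Sdf2l1, a partner of Dnajb11, and Manf had averaged values of -1.68 ± 0.58 (SE) and -1.39 ± 0.55 (SE) that did not pass.

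**Figure D4:**
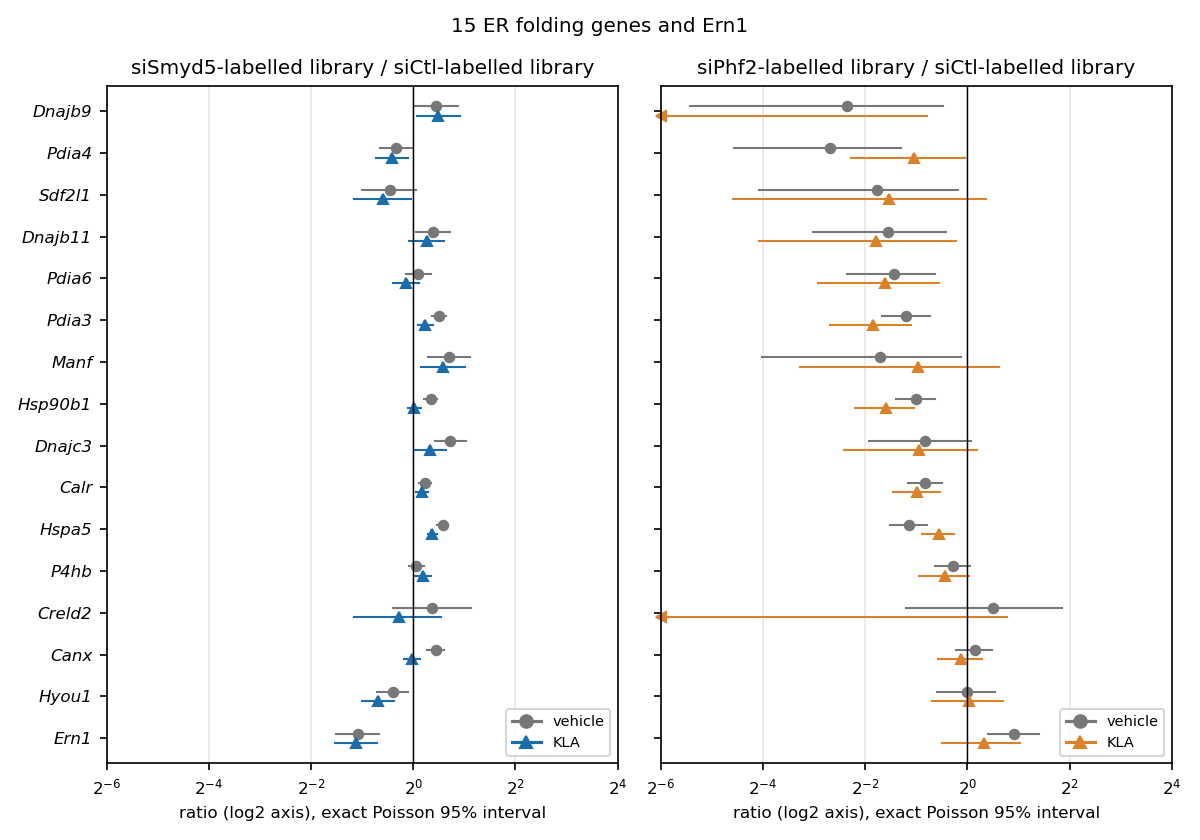
Ratio of the siSmyd5-labelled (left) and siPhf2-labelled (right) library to the siCtl-labelled library of the same agent for the 15 ER folding genes and Ern1, on a log2 axis, with bars for the exact Poisson 95% interval, drawn to the axis limits where they run past them. In the siSmyd5 panel the folding genes lie on both sides of 1, while in the siPhf2 panel 13 of the 15 lie below 1 under vehicle and 14 under KLA, and Ern1 lies left of 1 in the first and right of it in the second.

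By size, 10 members were lower under vehicle and 0 higher (10.8% of all tested genes higher, 8.84% lower), and 6 lower and 1 higher under KLA (7.93% higher, 7.23% lower). The 6 under KLA were Dnajb11, Dnajb9, Hsp90b1, Pdia3, Pdia4 and Pdia6, and under vehicle these were joined by Ddit3, Hspa5, Manf and Sdf2l1. The 1 higher was Sesn2, at 2.24-fold (1.24 to 3.80) under KLA on 16 reads, while under vehicle it stood at 0.439-fold (0.140 to 1.06) on 5. The counting interval lay below 1 under both agents for 8 members and above 1 under both for 0. These are the 8 that passed the averaged test, which used the same reads, so the match is no separate support. The share of all tested genes under this interval rule was not counted.

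Outside the folding genes none of the members passed. The degradation genes had a median log2 fold of 0.15, with Sel1l at 0.56 ± 0.26 (SE), Syvn1 at 0.17 ± 0.35 (SE), Edem1 at 0.12 ± 0.26 (SE) and Herpud1 at -0.79 ± 0.69 (SE). Among sensors and factors Ern1 was highest at 0.69 ± 0.27 (SE), on 41 and 17 reads, and Ddit3 lowest at -1.12 ± 0.47 (SE), on 6 and 3. Atf4 was at -0.38 ± 0.26 (SE). The amino acid genes had 0 to 21 reads in the siPhf2 libraries. In 23 of the 31 members, called ones included, the 95% interval ran past a log2 of 1 on 1 side at least.

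Carriers of the ER stress element were found among the lower genes and among the rest. Of the 8 carriers, 4 (Calr, Hsp90b1, Hspa5 and Pdia6) were among the lower genes and 4 (Canx, Creld2, Dnajc3 and Syvn1) did not pass. Of the 20 other tested members with a promoter, 4 (Dnajb11, Dnajb9, Pdia3 and Pdia4) were lower. All of these 4 are ER folding genes, as are 7 of the 8 carriers. The only other folding genes with a promoter and without the element, P4hb and Sdf2l1, did not pass. Whether the element goes with the lower level was not tested. The promoter of Hsp90b1 (chr10:86705445-86705694, minus strand), with its pair of sites in capitals, and that of Dnajb9 (chr12:44210069-44210318, minus strand), with none of the 4 motifs, are printed as 1 example of each.
Hsp90b1: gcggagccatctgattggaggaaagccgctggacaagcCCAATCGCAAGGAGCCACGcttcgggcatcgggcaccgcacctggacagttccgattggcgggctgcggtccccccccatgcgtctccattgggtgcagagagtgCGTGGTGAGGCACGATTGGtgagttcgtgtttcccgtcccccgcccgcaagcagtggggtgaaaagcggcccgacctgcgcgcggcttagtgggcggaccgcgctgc
Dnajb9: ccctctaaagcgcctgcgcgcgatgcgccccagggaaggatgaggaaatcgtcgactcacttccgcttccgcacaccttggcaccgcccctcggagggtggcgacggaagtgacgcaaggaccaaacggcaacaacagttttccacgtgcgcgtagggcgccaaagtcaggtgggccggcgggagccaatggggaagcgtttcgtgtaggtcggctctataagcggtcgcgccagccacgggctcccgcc

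Several other measures moved with the siPhf2 result, the marker sum also with siSmyd5, and their part in either result was not tested. Longer transcripts were higher in the siPhf2 libraries (Spearman correlation over 7995 genes 0.35 under vehicle and 0.25 under KLA), and the folding genes had a median length of 2471 bases against 2911. Relative to the trend with length the folding genes had a median log2 ratio of -1.06 under vehicle and -0.91 under KLA, against -0.10 and -0.26 for all tested genes. Of the 15 folding genes 6 and 5 were then called lower by size. Among all tested genes 16.4% and 14.3% were called so in either direction. The summed level of 5 mesothelium and fibroblast markers, nearly all from the collagens Col1a1, Col1a2 and Col3a1, was 723 and 766 TMM-scaled reads per 1000000 in siCtl, 553 and 601 in siSmyd5, and 414 and 286 in siPhf2. Of the plasma cell markers, Tnfrsf17 had 0 reads and Igj at most 3 in all libraries, and the summed level of the list, nearly all from Sdc1, was not lower in siPhf2 (290 and 191 TMM-scaled reads per 1000000) than in siCtl (248 and 146). Fewer cells of a type and less RNA per cell cannot be told apart in such bulk RNA.

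**Figure D5:**
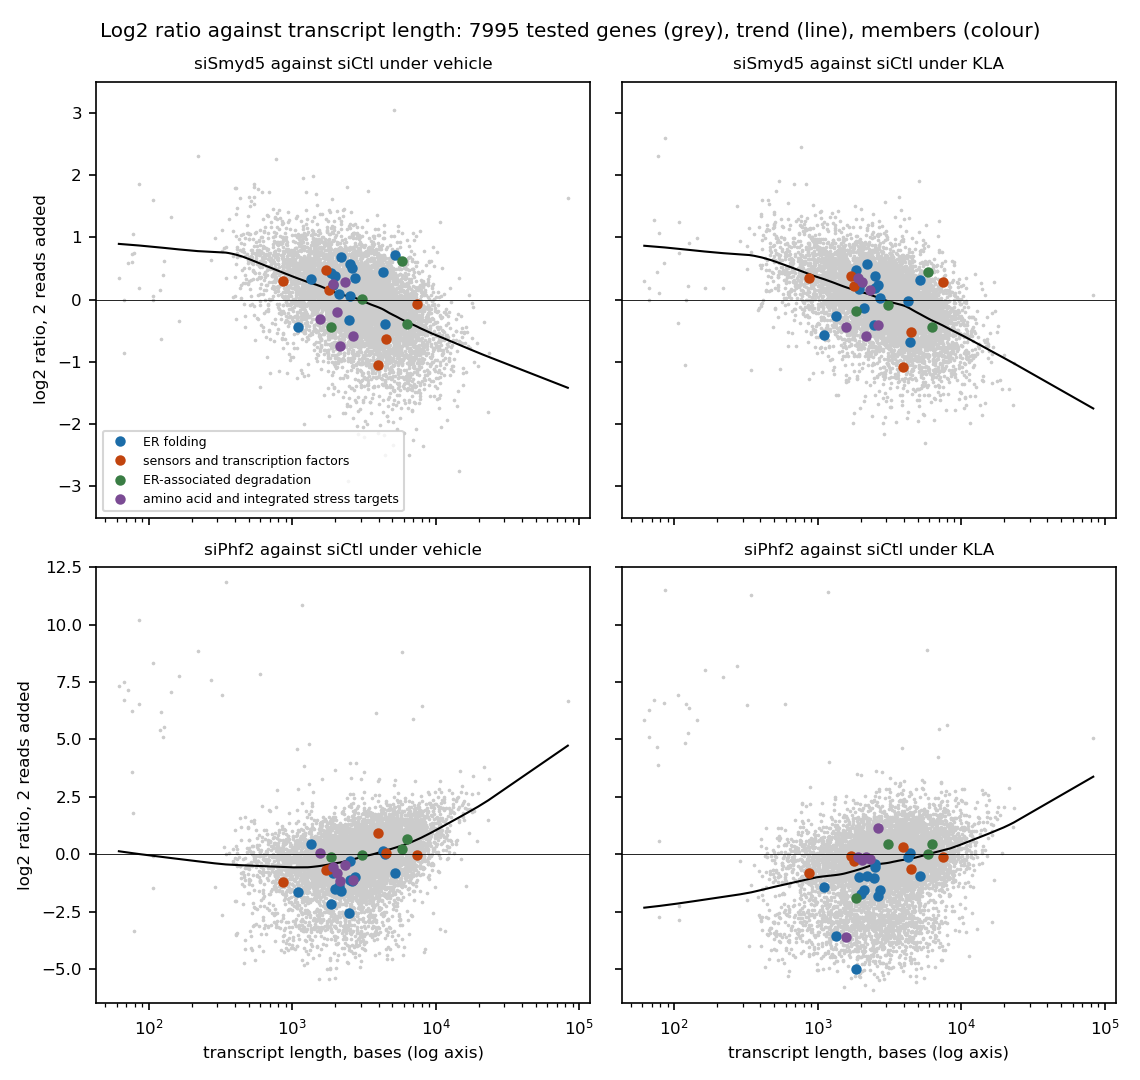
Log2 ratio to siCtl, with 2 reads added, against transcript length on a log axis for siSmyd5 (top) and siPhf2 (bottom) under vehicle (left) and KLA (right), with 7995 tested genes in grey, the smoothed trend as a line and the members in colour by role. The trend falls with length in the siSmyd5 panels and rises in the siPhf2 panels, and most blue folding genes lie below it in the latter.

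The siPhf2 counts changed with the scaling. Scaled to the total, which Rn45s fills in those libraries, all 31 members were lower, as a fit that called 92.4% of all genes gave, and scaled to the total without Rn45s 14 were, against 21.4% of all genes called. Under exchanged names the 8 folding genes were higher in siPhf2 by the same amount. DESeq2 called 4 of the members and 6.1% of all genes. Leaving out 1 library, which leaves 1 in its arm, moved the count of members below or above 8. The count over all tested genes moved the same way.

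The 41 tested other ER genes had a median log2 fold of -0.50 in siPhf2, against -0.13 for all tested genes, and 28 were below 0. Against 4.45% lower and 8.12% higher among all, 4 of the 41 passed as lower and 0 as higher. They were Ube2j1, a ubiquitin-conjugating enzyme of ER-associated degradation, at -2.83 ± 0.63 (SE), Spcs1 of the signal peptidase at -2.79 ± 0.67 (SE), Ostc of the oligosaccharyltransferase at -2.70 ± 0.80 (SE) and the reductase Dnajc10 at -1.45 ± 0.42 (SE). Of the other amino acid genes Slc7a11 was higher, at 2.13 ± 0.29 (SE), and Eif2s1, for the translation factor subunit that stress kinases phosphorylate, lower, at -1.79 ± 0.51 (SE). All 11 tested cytosolic heat shock genes had a log2 fold below 0 in siPhf2, with a median of -0.87. Of the 11, 0 passed as higher and 1 as lower, Hsp90aa1, at -3.65 ± 0.56 (SE). It had 211 and 272 reads in siCtl against 1 and 2 in siPhf2.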

How the data were processed

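The deposited values are a signal, reads per RefSeq transcript scaled by the authors to 10000000 tags, per the file headers, which also hold the word cds. HOMER and mm9 are named in the submitters' processing notes. For the aligner, strand and multi-match handling: not given in the sources used here. Gene coordinates are those of the table, on mm9, and span whole transcripts.

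Whole reads were recovered by dividing each value by 10000000 over a header total, and 100% of values came out within 0.02 of a whole number. The siCtl and siPhf2 columns did so only with each other's totals. Printed names were kept, and exchanged names were tried. The table holds 29619 transcripts, and 2 without a symbol were left out.

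The plan assumed whole reads wherever they could be recovered, so a count model was used on a deposited signal. Averaged effects came from edgeR 4.0.16 in R 4.3.3 (quasi-likelihood, default deviances, TMM scaling, additive siRNA and agent, 2 residual degrees of freedom, 2-sided, Benjamini-Hochberg over the 7995 genes whose mean was 10 reads or more). Its p-values rest on a spread between these libraries that is moderated over all tested genes, not on the spread of each gene alone. That spread also holds any difference of the KLA response between arms. Alternatives were DESeq2 1.42.0, limma 3.58.1 on log2 of scaled CPM plus 15.4, other scalings, filters and names, the 4 siCtl and siSmyd5 libraries, and each library left out.

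Contrasts of 1 library with 1 carry exact conditional Poisson 95% intervals, which cover counting error only, since no molecular identifiers are described. Printed ratios have no reads added. Length correction subtracted a smoothed trend of the log2 ratio with transcript length.

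Members and lists were chosen with earlier results of these data known. Named genes are the members that passed, those with an unadjusted p under 0.05, those called by size, and at most 6 of each direction from the other lists. Examples beyond these were chosen after their values were seen. Promoter sequences are those of RefSeq on GRCm38.p6, matched by gene ID, first-listed promoter of each gene, 250 bases before the start.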

Additional observations from a re-analysis of the deposited data

How the results depend on the processing

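No paired analysis was possible because the groups share only 1 replicate number, and the additive fit already sets KLA against vehicle within each siRNA arm. For the averaged KLA effect DESeq2 called 7.62% of all tested genes, limma 5.04% and adjusted deviances 9.99%. Of the 31 tested members, this effect called 3 in the main fit. It called 0 with DESeq2 (2 at an unadjusted p under 0.05), 1 with limma and 1 with adjusted deviances, a setting chosen after seeing the data. In the 4 siCtl and siSmyd5 libraries it called 8 (22.9% of all genes). For the averaged siSmyd5 effect DESeq2 called 5 of all 7995 tested genes, limma 0 and adjusted deviances 0. Of the members, this effect called 1 in the main fit. It called 0 with DESeq2 (1 at an unadjusted p under 0.05), 0 with limma (2) and 0 with adjusted deviances (6). In the 4 libraries it called 13 (23.7%), and with exchanged names 14 (25.3%), 12 of them higher. The averaged siPhf2 effect called 8. It called 31 scaled to the total (92.4% of all genes), 14 scaled to the total without Rn45s (21.4%) and 4 with DESeq2 (6.1%). With exchanged names it called 8, all higher. With 1 library left out, the member counts of all 3 effects moved below or above the main counts, as did the counts over all tested genes. The cause of these changes was not tested, except that exchanging names turns siPhf2 against siCtl by construction and leaving out libraries lowers the residual degrees of freedom. When an arm is left with 1 library, that library is assumed to vary like the others.

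By size, KLA in siCtl called 0 members (9.33% of all genes), 1 (Chac1) with 0.5 reads added (10.2%) and 3 with exchanged names (15.3%). KLA in siSmyd5 called 1, and 0 scaled to either total or with a minimum mean of 50 reads. KLA in siPhf2 called 3 (15.3%), then 1 scaled to the total (18.3%) and 0 with exchanged names (9.33%). The siSmyd5 contrasts called 1 under vehicle (7.4%) and 1 under KLA (5.35%), and 0 relative to the length trend (4.92% and 3.1%). With exchanged names they called 14 under vehicle (28.5%) and 9 under KLA (21%). The siPhf2 contrast under vehicle called 10 (19.7% of all genes), then 30 scaled to the total (83.3%) and 16 without Rn45s in it (26.1%). It called 6 relative to length (16.4%) and 10, all higher, with exchanged names (19.7%). Under KLA it called 7 (15.2%), then 31 (84.6%), 11 (20.7%), and 7 with exchanged names (15.2%), 6 of them higher.

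With exchanged names the averaged siPhf2 log2 folds became 0.83 for Hspa5, 1.27 for Hsp90b1, 1.46 for Pdia3, 1.80 for Pdia4, 1.51 for Pdia6, 0.90 for Calr, 3.05 for Dnajb9 and 1.65 for Dnajb11, and the siSmyd5 folds 1.43 for Pdia4 and 1.49 for Pdia6. Scaled to the total, the siPhf2 folds turned to -2.15 for Canx, -1.46 for Ern1, -1.59 for Sel1l, -1.97 for Syvn1, -2.03 for Edem1, -2.14 for Hyou1 and -1.94 for Sesn2. Over its alternatives the KLA fold of Ppp1r15a passed in 10 of 15 (log2 0.76 to 1.05), Hspa5 in 7 of 15 and Herpud1 in 5 of 14, and the siSmyd5 fold of Ern1 in 8 of 15 (-1.79 to -0.89). For siPhf2, Pdia3 and Hsp90b1 passed lower in 12 of 14, Hspa5 in 5 of 14.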
